A study of Mus musculus with 12 samples.

Results

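The enzymes of the pentose phosphate pathway, together with the other cytosolic makers of NADPH and the carrier that feeds them, were examined as a set of 10 genes in the liver of the mouse. The members were listed by name for the reactions their products carry out, with earlier results of these data known, so their counts beside those of all genes are a description of a chosen set. All 10 were found among the 48526 genes of the deposited expression table, and all 10 were among the 11968 genes that passed the filter on low counts and were tested. Liver RNA came from C57BL/6J mice, an inbred strain with no engineered allele, in 4 groups of 3 livers: female chow, female statin, male chow and male statin. The statin groups ate the same chow with simvastatin, an inhibitor of the cholesterol synthesis enzyme HMG-CoA reductase, for 4 weeks. The dose was 0.1 g per kg, which the sample labels refer to body weight and the study's methods to food weight. The mice were young adults, and the age is not given in the labels. Total counts per liver ran from 46066381 to 60419223, at which 3 counts, the smallest number taken as above 0, amount to between 0.0497 and 0.0651 CPM (counts scaled to a common library total), counting error alone being covered. The totals are above the average read depth given in the study's methods, and what 1 count stands for (a read or a read pair) is not given in the sources used here. Levels are CPM after TMM normalization, a rescaling that evens out the log ratios of most genes between libraries. The exceptions are the sums of cell type markers and the levels of overlapping genes that were not tested. Those are CPM without this rescaling. Every adjusted p-value is from edgeR's two-sided quasi-likelihood test with the Benjamini-Hochberg adjustment over all 11968 genes. The 6 hepatocyte markers summed to between 87442 and 151419 CPM in each liver, while the pancreas markers reached at most 1.89 CPM and the fat markers at most 0.101 CPM. In whole liver, fewer cells of a type and less RNA per cell cannot be told apart.

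The pentose phosphate pathway branches from glycolysis at glucose 6-phosphate. Its oxidative arm makes NADPH by the successive action of glucose-6-phosphate dehydrogenase (G6pdx, the committed and rate-limiting step), 6-phosphogluconolactonase (Pgls) and 6-phosphogluconate dehydrogenase (Pgd), and ends in ribulose 5-phosphate. The nonoxidative arm interconverts sugar phosphates through ribose-5-phosphate isomerase (Rpia), ribulose-5-phosphate epimerase (Rpe), transketolase (Tkt) and transaldolase (Taldo1). Malic enzyme (Me1) and cytosolic isocitrate dehydrogenase (Idh1) are the other main cytosolic sources of NADPH, and the mitochondrial citrate carrier (Slc25a1) exports the citrate from which cytosolic acetyl-CoA and malate are made. Hepatocytes use NADPH for the synthesis of fatty acids and sterols and to keep glutathione reduced. In liver, G6pdx and Me1 are textbook lipogenic genes, low in fasting and high after carbohydrate feeding.

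The sequences before the transcription starts of G6pdx, Pgd, Me1 and Slc25a1 are shown because the first 3 differed most among the livers and the fourth holds the E-box match found. Each runs 5′ to 3′ along the gene from 250 bases before the RefSeq start to 10 bases after it, in the build GRCm38.p6, and capitals mark a match to one of the motifs searched.
G6pdx, chrX:74428871-74429130, minus strand: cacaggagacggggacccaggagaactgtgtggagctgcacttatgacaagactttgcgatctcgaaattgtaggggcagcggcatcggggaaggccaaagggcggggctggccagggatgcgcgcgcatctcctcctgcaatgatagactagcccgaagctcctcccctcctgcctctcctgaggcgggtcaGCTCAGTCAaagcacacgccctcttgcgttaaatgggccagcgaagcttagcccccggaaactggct
Pgd, chr4:149166696-149166955, minus strand: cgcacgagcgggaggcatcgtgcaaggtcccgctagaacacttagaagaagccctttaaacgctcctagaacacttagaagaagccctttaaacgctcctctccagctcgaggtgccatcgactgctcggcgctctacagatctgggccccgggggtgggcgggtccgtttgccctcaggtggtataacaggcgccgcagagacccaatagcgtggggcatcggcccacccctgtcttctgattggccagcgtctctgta
Me1, chr9:86695905-86696164, minus strand: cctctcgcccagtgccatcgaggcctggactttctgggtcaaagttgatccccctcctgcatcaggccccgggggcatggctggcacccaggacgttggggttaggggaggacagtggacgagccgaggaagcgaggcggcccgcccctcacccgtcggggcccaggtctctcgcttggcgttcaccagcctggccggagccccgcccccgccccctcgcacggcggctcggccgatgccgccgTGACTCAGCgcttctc
Slc25a1, chr16:17928210-17928469, minus strand: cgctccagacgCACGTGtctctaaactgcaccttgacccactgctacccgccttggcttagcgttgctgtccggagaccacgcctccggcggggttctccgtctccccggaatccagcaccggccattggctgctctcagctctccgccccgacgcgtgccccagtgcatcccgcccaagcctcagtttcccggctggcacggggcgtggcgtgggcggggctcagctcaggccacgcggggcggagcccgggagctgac

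Promoters of 300 bases, from 250 before the start to 50 after it, were searched on both strands for CACGTG (the E-box core bound by basic helix-loop-helix factors), TCACNCCAC (a form of the sterol response element) and TGACNNNGC (the core of the antioxidant response element). All 10 members had an entry, and Idh1, Pgd and Me1 had 2 entries each, 13 in all. TGACNNNGC was found in 3 of the members' 13 entries, those of G6pdx, Pgd and Me1, against 12.4% of all 32851 promoter entries. In G6pdx it begins 57 bases before the start and is read on the opposite strand, and in Me1 it spans the start, its first base lying 6 bases before it. In Pgd the match lies after the start of the other RefSeq entry, not of the one printed. CACGTG was found in 1 of the 13, in Slc25a1, 239 bases before the start, against 7.15% of all entries, and TCACNCCAC in 0 of the 13, against 1.24%. The counts depend on the window: with the 250 bases before the start alone, a window outside the plan that was searched as well, TGACNNNGC was in 1 of the 13 entries, that of G6pdx, against 10.2% of all entries. A match describes letters in the window and not a bound site.

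On chow, 6 of the 10 enzymes were more abundant in female than in male liver by the adjusted test, where 5.96% of all genes were higher in females. They were G6pdx, Pgd, Rpia, Tkt, Taldo1 and Me1, which belong to both arms of the pathway and to malic enzyme. The number was 5 with library size alone or with no filter, both without Taldo1, and 7 with DESeq2, which added Idh1. In 8 of the 10, the same 6 with Idh1 and Slc25a1, each female chow liver was above each male chow liver, against 18.5% of all genes, and with DESeq2's size factors or library size alone the number was 7, without Slc25a1. The median difference over the members was 0.79 on the log2 scale, against -0.009 over all genes, and 9 of the 10 were positive. Simvastatin was given to both sexes, and the same 10 genes were then compared with chow within each sex.

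In females fed simvastatin, all 10 members had negative log2 fold changes against chow, with a median of -0.49 against 0.013 over all genes. None passed the adjusted test, which 0.1% of all genes did. At an unadjusted p under 0.05, 6 of the 10 were lower with statin (G6pdx, Pgd, Rpia, Tkt, Taldo1 and Me1), where 4.56% of all genes were. The number was 4 when only the female livers were fitted, without Taldo1 and Me1, and 7 with DESeq2, which added Idh1. In 7 of the 10 (Pgls, Pgd, Rpia, Tkt, Taldo1, Me1 and Idh1), each statin liver lay below each chow liver, against 5.97% of all genes. With DESeq2's size factors this held for 6, without Pgls, and with library size alone for 5, without Taldo1 and Idh1. In males the median was 0.14, against 0.004 over all genes, and again none of the members passed the adjusted test, which 0.0% of all genes did. Me1 was the 1 member higher with statin at an unadjusted p under 0.05, against 0.844% of all genes, and G6pdx, Tkt and Me1 were the 3 whose statin livers all lay above the chow livers, against 3.64%. The female and the male comparison share no livers, but the female chow livers enter both the statin comparison in females and the comparison of the sexes on chow.

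**Figure D1:**
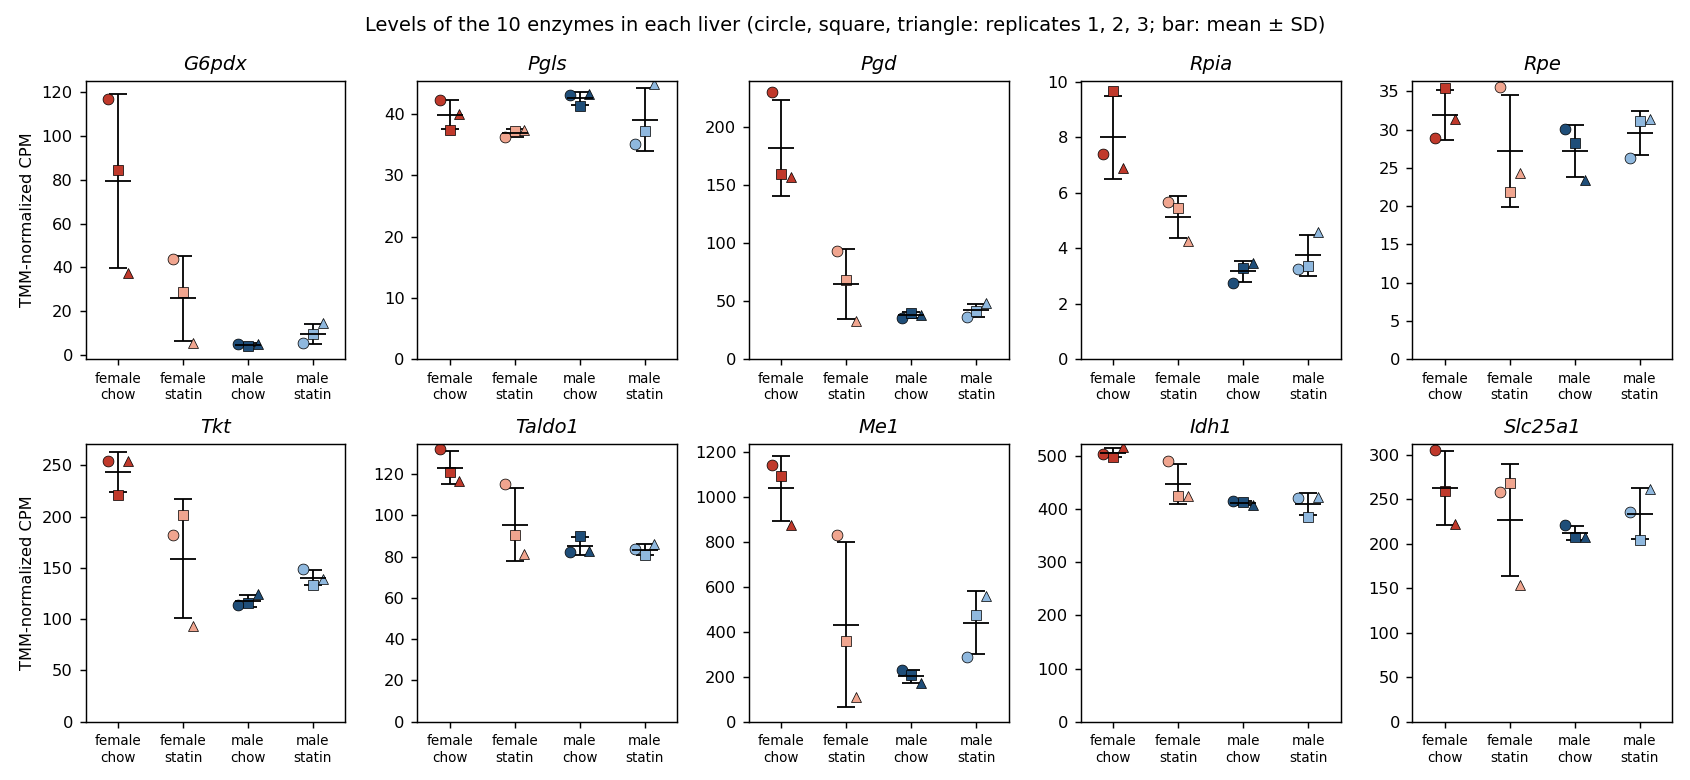
Level of each of the 10 enzymes in TMM-normalized CPM on a linear axis from 0, 1 panel per gene, with the 4 groups along the horizontal axis, 1 symbol per liver and the mean ± SD of 3 livers. G6pdx, Pgd and Me1 are highest in the female chow livers and spread widely among the female statin livers, where replicate 3 is lowest, while Pgls and Rpe lie in nearly the same range in all 4 groups.

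In the oxidative arm both dehydrogenases were higher in females than in males on chow. G6pdx (ENSMUSG00000031400.10, chrX:74409483-74429194, minus strand) stood at 117, 84.4 and 37.5 CPM in the female chow livers and at 43.9, 28.7 and 5.33 in the female statin livers. It stood at 5.0, 3.93 and 5.03 CPM in the male chow livers and at 5.33, 9.44 and 14.4 in the male statin livers. The female ranges overlapped between diets, and the lowest female statin liver was within the male range. The female chow mean of 79.5 ± 39.8 CPM (SD, n = 3) was 17.1 times the male chow mean of 4.66 ± 0.628, a log2 difference of 4.10 (SE 0.67, adjusted p = 0.00260). With statin the female mean was 26.0 ± 19.4 CPM, a log2 change of -1.61 (95% interval -2.93 to -0.30, adjusted p = 0.359), and the male mean 9.73 ± 4.55, a log2 change of 1.07 (-0.28 to 2.41, adjusted p = 1.00). The intervals show how little 3 livers a group fix the size of this gene's response.

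Pgd (ENSMUSG00000028961.15, chr4:149149991-149166771, minus strand), which carries out the other NADPH-forming step, stood at 229, 159 and 156 CPM in the female chow livers and at 92.7, 68.4 and 32.6 in the female statin livers. All 3 statin livers were below all 3 chow livers. The male livers held 35.5, 40.0 and 38.1 CPM on chow and 36.1, 41.6 and 47.9 on statin, ranges that overlapped. Pgd had the smallest p of the members in females, with a log2 change of -1.49 (SE 0.30, unadjusted p = 2.9e-04, adjusted p = 0.0951), and in males its log2 fold change was 0.14 (-0.49 to 0.78). On chow it was 4.80 times higher in females, at 182 ± 41.4 against 37.8 ± 2.23 CPM (log2 2.26, SE 0.30, adjusted p = 6.5e-04). Pgls, the lactonase between these steps (chr8:71592176-71601092, plus strand), stayed between 35.2 and 44.9 CPM in all 12 livers, and its log2 fold change was -0.11 in females (-0.35 to 0.13) and -0.12 in males (-0.36 to 0.12). The enzyme between the dehydrogenases thus had a narrow range where both dehydrogenases had a wide one. The SD of the log2 level over the 12 livers was 1.64 for G6pdx and 0.99 for Pgd, against 0.11 for Pgls.

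In the nonoxidative arm the log2 differences with statin in females and between the sexes on chow were smaller than those of G6pdx and Pgd, and of the pair that act on ribulose 5-phosphate, Rpia had the wider log2 range. Rpia (chr6:70765720-70792232, minus strand), which makes ribose 5-phosphate for nucleotides, was at 7.39, 9.69 and 6.91 CPM in female chow livers and at 5.65, 5.45 and 4.27 in female statin livers, with no overlap. Its log2 change in females was -0.64 (SE 0.20, unadjusted p = 0.0064, adjusted p = 0.241). Male livers were at 2.74, 3.29 and 3.45 CPM on chow and at 3.26, 3.37 and 4.59 on statin, and the log2 change was 0.24 (-0.19 to 0.68). On chow the female level of Rpia was 2.53 times the male level (log2 1.34, SE 0.20, adjusted p = 0.00138). Rpe, the epimerase (chr1:66700831-66719805, plus strand), ranged from 21.8 to 35.6 CPM, both extremes lying in the female statin group, and its groups overlapped in every comparison. Its log2 changes were -0.23 in females (-0.61 to 0.16) and 0.12 in males (-0.27 to 0.51), and 0.23 between the sexes on chow (-0.16 to 0.62).

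Tkt (chr14:30548359-30574720, plus strand), the thiamine-dependent enzyme that moves fragments of sugar phosphates between the nonoxidative arm and glycolysis, was at 255, 221 and 254 CPM in female chow livers and at 182, 202 and 93.2 in female statin livers. The male livers were at 114, 116 and 125 CPM on chow and at 149, 134 and 139 on statin. The statin livers were thus below the chow livers in females and above them in males, without overlap in either sex. The log2 change of Tkt was -0.62 in females (SE 0.22, adjusted p = 0.333) and 0.25 in males (-0.23 to 0.73, adjusted p = 1.00), and on chow the female level was 2.06 times the male level (log2 1.04, SE 0.22, adjusted p = 0.0111). Taldo1 (chr7:141392199-141402968, plus strand), the partner of transketolase, was at 132, 121 and 116 CPM in female chow livers and at 115, 90.3 and 81.0 in female statin livers, a log2 change of -0.37 (SE 0.13, adjusted p = 0.334). All male livers were between 80.8 and 90.1 CPM, with a log2 change of -0.03 (-0.32 to 0.26). The female excess of Taldo1 on chow was 1.45-fold (log2 0.53, SE 0.13, adjusted p = 0.0240).

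**Figure D2:**
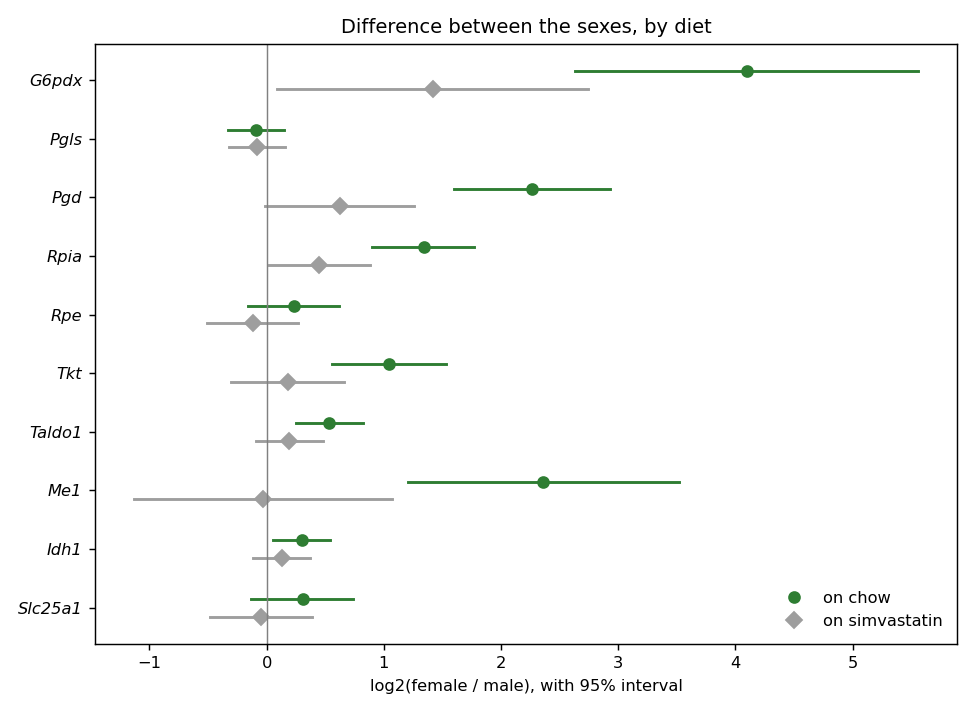
Log2 ratio of female to male livers for each enzyme on chow (circles) and on simvastatin (diamonds), with the 95% interval of edgeR's fit and the line of no difference at 0. On chow G6pdx lies at 4.10, Me1 at 2.36 and Pgd at 2.26, and on simvastatin 8 of the 10 intervals contain 0, those of G6pdx and Rpia lying just above it.

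Me1 (ENSMUSG00000032418.15, chr9:86581371-86695953, minus strand), which converts malate to pyruvate with the release of NADPH, had the widest range of CPM of the 10. It was at 1142, 1094 and 873 CPM in female chow livers and at 830, 357 and 109 in female statin livers. The female statin livers were all below the chow livers, and the lowest was below every male liver. Male livers were at 228, 207 and 170 CPM on chow and at 286, 475 and 560 on statin, again without overlap but with the statin livers above. The log2 change of Me1 was -1.26 in females (-2.38 to -0.15, adjusted p = 0.403) and 1.13 in males (0.01 to 2.24, unadjusted p = 0.0476, adjusted p = 1.00). The group means on statin, 432 ± 366 CPM in females and 440 ± 140 in males, differed by less than the spread of either group, while on chow they were 1036 ± 143 and 202 ± 29.0 (log2 2.36, SE 0.53, adjusted p = 0.0150).

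Idh1 and Slc25a1 varied much less. Idh1 (chr1:65158616-65186500, minus strand), which oxidizes isocitrate to 2-oxoglutarate in the cytosol and in peroxisomes, was at 505, 498 and 516 CPM in female chow livers and at 490, 425 and 424 in female statin livers. These did not overlap, although the log2 change was only -0.18 (-0.43 to 0.06, adjusted p = 0.672). In males Idh1 was between 385 and 423 CPM over both diets, and the female excess on chow of 1.23-fold missed the adjusted threshold (log2 0.30, SE 0.11, adjusted p = 0.119). Slc25a1 (chr16:17925223-17928219, minus strand) was at 305, 260 and 222 CPM in female chow livers and at 258, 268 and 154 in female statin livers. Male livers were between 204 and 262 CPM, and the log2 changes with statin were -0.21 in females (-0.64 to 0.22) and 0.14 in males (-0.29 to 0.58). On chow the sexes differed by 0.31 on the log2 scale (-0.13 to 0.74, adjusted p = 0.383).

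**Figure D3:**
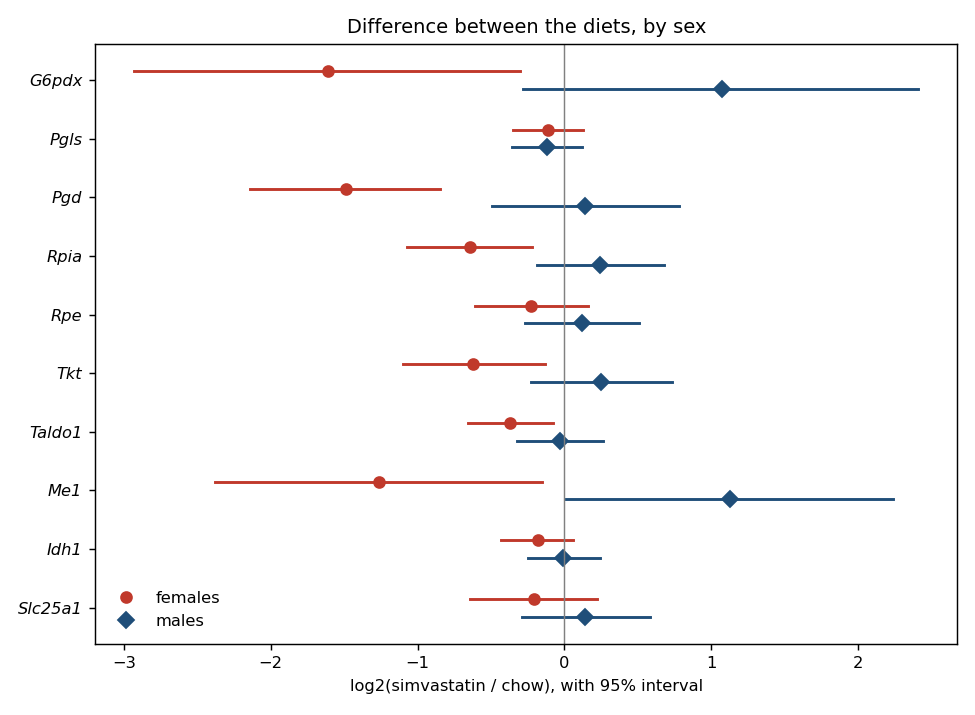
Log2 ratio of simvastatin to chow livers for each enzyme in females (circles) and in males (diamonds), with 95% intervals. The female values are all below 0, reaching -1.61 for G6pdx, -1.49 for Pgd and -1.26 for Me1, and the male values of G6pdx (1.07) and Me1 (1.13) lie above 0.

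The difference between the sexes in the response to statin was tested as an interaction. None of the members passed the adjusted test, which 0.0% of all genes did. At an unadjusted p under 0.05 the response was lower in females for 5 of the 10, G6pdx, Pgd, Rpia, Tkt and Me1, against 3.39% of all genes. The interaction was -2.68 on the log2 scale for G6pdx (SE 0.86, unadjusted p = 0.0090, adjusted p = 0.405) and -1.64 for Pgd (SE 0.41, unadjusted p = 0.0019, adjusted p = 0.305). For Me1 it was -2.39 (SE 0.72, unadjusted p = 0.0062, adjusted p = 0.363). The median over the members was -0.61, against 0.007 over all genes. On statin, 0 of the 10 differed between the sexes by the adjusted test, which 6.28% of all genes did in either direction. G6pdx and Rpia, 2 of the 10, were higher in females at an unadjusted p under 0.05 (log2 1.42 and 0.45), against 12.2% of all genes, and in 1, Idh1, all female statin livers were above all male statin livers, against 11.1%. The median difference between the sexes on statin was 0.15, against -0.012 over all genes.

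Single livers carried part of these differences. Replicate 3 of female statin was the lowest of the 6 female livers for 8 of the 10 members, all but Pgls and Rpe, and replicate 1 of female chow was the highest for 7. In males replicate 3 of statin was the highest of the 6 livers for 8 members. Without replicate 3 of female statin, the log2 changes in females were -1.12 for G6pdx, -1.16 for Pgd, -0.33 for Tkt, -0.79 for Me1 and 0.02 for Slc25a1, and all but the last kept a negative sign. Without replicate 1 of female statin they were larger, at -2.21 for G6pdx and -2.14 for Me1, and Pgd passed the adjusted test, at -1.84 (adjusted p = 0.0329). Of the 6 members at an unadjusted p under 0.05 in females, Pgd, Rpia and Tkt stayed there whichever liver was left out. Without replicate 1 of female chow, edgeR's unadjusted p was 0.0903 for G6pdx, 0.0681 for Taldo1 and 0.0708 for Me1. For Taldo1 it was 0.0840 without replicate 3 of female statin, and for Me1 0.0645 without replicate 2 of female chow and 0.0867 without replicate 2 of female statin. In males the unadjusted p of Me1 rose above 0.05 in 9 of the 12 omissions, reaching 0.134 without replicate 3 of statin. The interaction ran from -3.28 to -2.20 for G6pdx and from -3.28 to -1.93 for Me1, the ends lying without replicate 1 and without replicate 3 of female statin, and its 5 members stayed at an unadjusted p under 0.05 each time. On statin the difference of G6pdx between the sexes fell to 0.81 (unadjusted p = 0.217) without replicate 1 of female statin, and that of Rpia to 0.37 (unadjusted p = 0.127). Without replicate 3 of female statin, G6pdx at 1.89 (adjusted p = 0.0316) and Pgd at 0.94 (adjusted p = 0.0185) passed the adjusted test as higher in females on statin. For the difference between the sexes on chow, between 3 and 6 members passed when each liver was left out in turn, the fewest without replicate 1 of male chow, and the adjusted p reached 0.0516 for Tkt, 0.0932 for Taldo1 and 0.0662 for Me1. G6pdx, Pgd and Rpia passed each time.

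**Figure D4:**
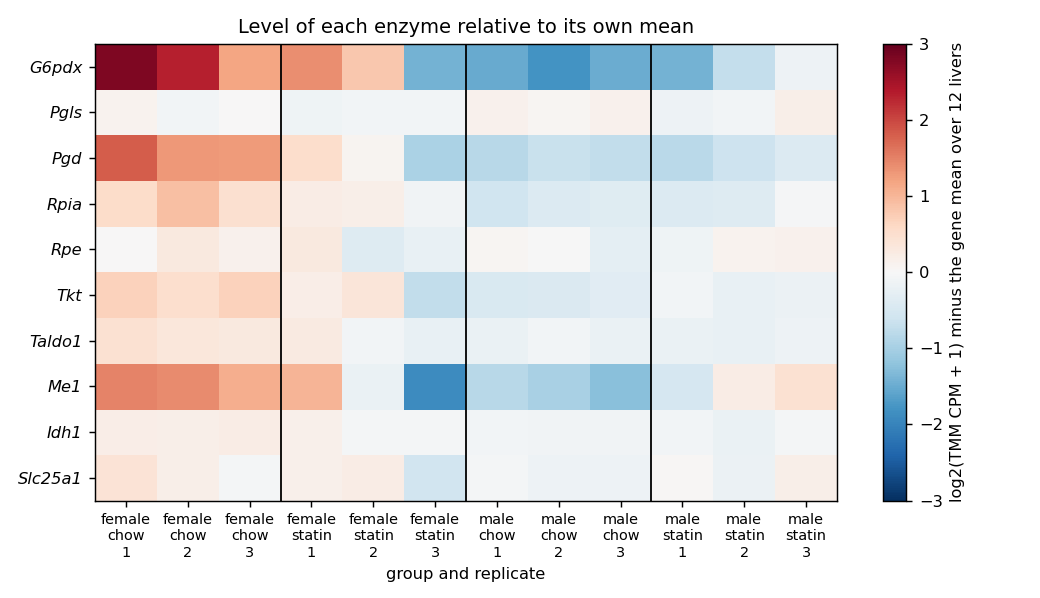
Heat map of log2(TMM CPM + 1) of each enzyme minus its own mean over the 12 livers, with enzymes in rows and livers in columns ordered by group and replicate. The female chow columns are red for G6pdx, Pgd and Me1, replicate 3 of female statin is blue for most enzymes, and the rows of Pgls, Rpe and Idh1 are pale throughout.

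Levels of different genes were compared per kilobase of exon, as TMM CPM divided by the length of all exons joined. In female chow livers Me1 led, at 269 ± 37.2 CPM per kb, followed by Idh1 at 183 ± 3.32 and Slc25a1 at 121 ± 19.2, with no overlap between neighbours. In male chow livers the order was Idh1 at 149 ± 1.22, Slc25a1 at 97.9 ± 3.75 and Me1 at 52.4 ± 7.53, again without overlap. In both statin groups Idh1 had the highest mean, but the ranges of Idh1 and Me1 overlapped. Taldo1 and Tkt came next in each group, and Rpia was the lowest of the 10 in each group, at between 0.591 and 1.49 CPM per kb. In female chow livers the ranges of Tkt and Pgd, of Pgd and G6pdx and of Pgls and Rpe overlapped.

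Among the 4 enzymes whose reactions form NADPH in the cytosol (G6pdx, Pgd, Me1 and Idh1), the makeup of the mRNA differed by group. Me1 took 53.1% ± 2.37 of their summed level per kb in female chow livers and 25.1% ± 2.62 in male chow livers, and Idh1 took 36.4% ± 4.45 and 71.4% ± 2.38 (SD, n = 3). With statin the share of Me1 was 33.7% ± 18.1 in females, from 15.1% to 51.2%, and 41.4% ± 8.29 in males. G6pdx and Pgd, the enzymes of the pentose phosphate pathway, took small shares, 4.96% and 5.54% in female chow livers and 0.727% and 2.82% in male chow livers. The sum itself was 506 ± 52.0 CPM per kb in females on chow and 292 ± 119 with statin, and in males 208 ± 8.55 and 272 ± 38.5. The sums of female statin, from 188 to 421, spanned those of both male groups. These are levels of mRNA, and neither enzyme activity nor NADPH was measured.

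**Figure D5:**
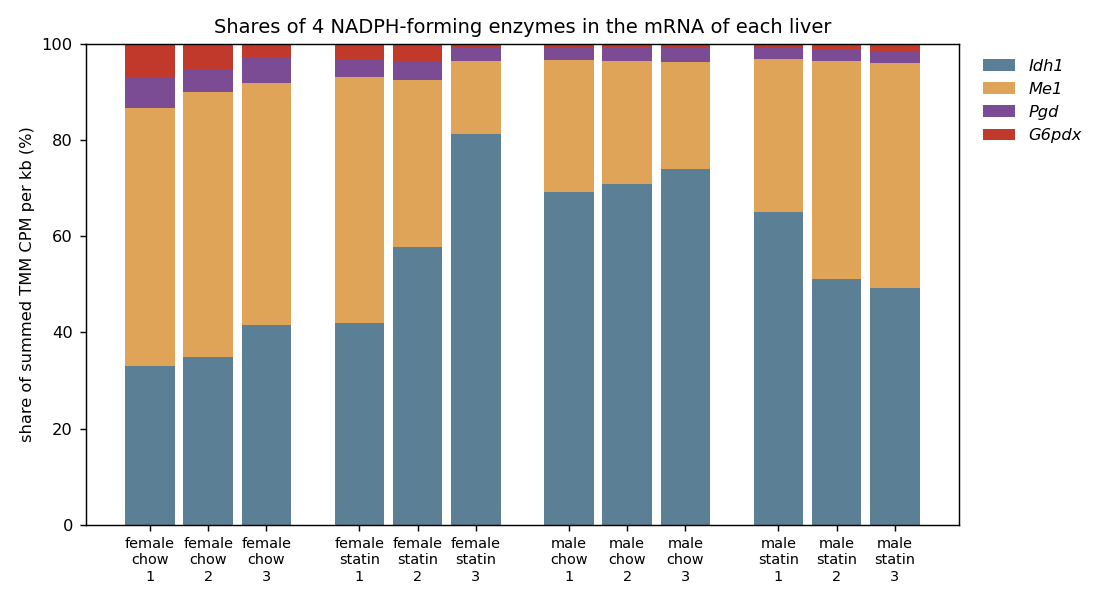
Share of each of 4 NADPH-forming enzymes in their summed level per kb, 1 stacked bar per liver, in percent. The share of Me1 is larger than that of Idh1 in the female chow livers and in replicate 1 of female statin, and smaller in the other 8 livers.

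Genes next to the pathway were counted from lists. With statin 4.56% of all genes were lower and 5.93% higher in females at an unadjusted p under 0.05. In males 1.11% were lower and 0.844% higher. On chow 5.96% of all genes were higher and 4.49% lower in females by the adjusted test. These shares stand beside the counts of each list and of the cell type markers. Of 9 tested accessory pentose phosphate genes, 0 passed the adjusted test with statin in either sex. Gpi1, glucose-6-phosphate isomerase, which takes the same substrate into glycolysis, was at 675 ± 74.2 CPM in female chow and 357 ± 55.9 in female statin (log2 -0.92, SE 0.18, adjusted p = 0.0951), and in males at 213 ± 44.6 and 233 ± 22.9. It was the 1 gene of the list at an unadjusted p under 0.05 in females. On chow 2 of the 9, Gpi1 (log2 1.67, adjusted p = 1.2e-04) and the phosphopentomutase gene Pgm2 (log2 0.86, adjusted p = 0.0128), were higher in females. Of 9 other NADPH and NADP enzymes, 2 were higher with statin in females at an unadjusted p under 0.05, as were 5.93% of all genes, namely the mitochondrial NAD kinase Nadk2 (log2 0.39, adjusted p = 0.290) and the mitochondrial transhydrogenase Nnt, which carries a natural deletion in C57BL/6J (log2 0.39, adjusted p = 0.385). On chow Nadk2 was lower in females (log2 -0.53, adjusted p = 0.0215), as were 4.49% of all genes, and the cytosolic NAD kinase Nadk, named after its values were seen, was higher (log2 0.43, adjusted p = 0.0478). The median of the 9 with statin in females was -0.08. Of these calls, that of Pgm2 was lost without replicate 1 of male chow (adjusted p = 0.0632), that of Nadk2 on chow in 4 of the 12 omissions of a liver (up to 0.0795, without replicate 2 of male chow) and that of Nadk in 8 (up to 0.169, without replicate 3 of female chow). In females the unadjusted p of Nnt rose above 0.05 in 3 omissions (up to 0.0814, without replicate 2 of female chow).

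Of 11 genes of the citrate, malate and pyruvate cycle, 4 were lower and 1 was higher with statin in females at an unadjusted p under 0.05, and 0 passed the adjusted test. Acly, the ATP citrate lyase that splits the exported citrate, was at 2129 ± 728 CPM in female chow and 491 ± 290 in female statin (log2 -2.12, SE 0.44, adjusted p = 0.0968), against 264 ± 55.3 and 295 ± 41.1 in males. Both malate dehydrogenases were slightly lower (Mdh1 log2 -0.32, Mdh2 log2 -0.29), as was citrate synthase Cs (log2 -0.56), which was named after its values were seen. Slc25a10, the dicarboxylate carrier that moves malate out of mitochondria, was at 107 ± 18.6 CPM in female chow and 185 ± 41.0 in female statin (log2 0.78, adjusted p = 0.175). On chow Acly (log2 3.01, adjusted p = 0.00157) and Mdh2 (log2 0.43, adjusted p = 0.0234) were higher in females, and Slc25a10 (log2 -1.01, adjusted p = 0.00896) was lower. The call of Mdh2 was lost in 5 of the 12 omissions (adjusted p up to 0.0999, without replicate 1 of male chow), while Acly and Slc25a10 passed each time. With statin in females the unadjusted p reached 0.121 for Mdh1 without replicate 3 of female chow, and without replicate 1 of that group 0.0674 for Mdh2 and 0.182 for Cs, the latter at a log2 change of -0.36.

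Of 13 NADPH-using enzymes, 0 passed the adjusted test with statin in females, and 2 were lower and 1 higher at an unadjusted p under 0.05. Fatty acid synthase Fasn, a large consumer of NADPH, was at 3730 ± 1607 CPM in female chow and 1033 ± 762 in female statin (log2 -1.85, SE 0.55, adjusted p = 0.233), and the enoyl-CoA reductase Tecr had a log2 change of -0.39. On chow 3 of the 13 were higher in females, Fasn (log2 3.54, adjusted p = 0.00285), Tecr (log2 0.65, adjusted p = 0.0320) and the squalene epoxidase Sqle (log2 1.68, adjusted p = 0.0302), the last named after its values were seen. The list's median on chow was 0.26. Tecr lost the call on chow in 6 of the 12 omissions (adjusted p up to 0.133) and Sqle in 5 (up to 0.118), both highest without replicate 1 of female chow, while Fasn passed each time. In females with statin the log2 change of Fasn ran from -2.48 to -1.37, without replicates 2 and 3 of statin, and that of Tecr was -0.20 without replicate 3 of statin (unadjusted p = 0.204).

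A list of 14 genes held transcriptional regulators of the members together with genes linked to them. The median log2 change of the 14 with statin in females was -0.16. Of the 14, 3 were lower with statin in females at an unadjusted p under 0.05 and 0 passed the adjusted test. They were Mlxipl, which encodes the carbohydrate sensor ChREBP (log2 -0.59, adjusted p = 0.261), the liver X receptor beta gene Nr1h2 (log2 -0.34, adjusted p = 0.218) and the lipogenic factor Thrsp (log2 -1.19, adjusted p = 0.415). On chow Thrsp (log2 1.79, adjusted p = 0.0417) and Insig1 (log2 0.80, adjusted p = 0.0406), a retention protein of the SREBP pathway named after its values were seen, were higher in females. Thrsp lost its call in 7 of the 12 omissions (adjusted p up to 0.128, without replicate 3 of male chow) and Insig1 in 5 (up to 0.170, without replicate 2 of female chow). With statin in females the log2 change of Thrsp was -1.91 without replicate 1 of statin and -0.85 without replicate 3 (unadjusted p = 0.128), and the unadjusted p of Mlxipl was 0.0538 without replicate 2 of female chow.

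Values of feeding and fasting genes are given beside these enzymes, and their part in the result was not tested. Of the 12, 0 passed the adjusted test with statin in females, and 3 were higher and 2 lower at an unadjusted p under 0.05. Of the higher ones, Fgf21, a hormone of fasting, had a log2 change of 1.14, and Cpt1a, which brings fatty acids into mitochondria and was named after its values were seen, one of 0.67. Lpin1 (log2 -1.62) and the glycolytic enzyme Pklr (log2 -0.92) were the 2 lower ones. In males 1 was higher, Lpin1 (log2 1.72), and 2 were lower, Fgf21 (log2 -0.83) among them, at an unadjusted p under 0.05, where 1.11% of all genes were lower. On chow 1 of the 12 passed the adjusted test as lower and 4 as higher in females, the latter being Pklr, Lpin1, Pnpla3 and Pdk4, the last 2 named after their values were seen. Pklr lost this call in 4 of the 12 omissions (adjusted p up to 0.0791, without replicate 1 of male chow) and Pnpla3 in 2 (up to 0.0623, without replicate 3 of male chow). With statin in females the unadjusted p of Lpin1 (0.0548) and Pklr (0.0569) rose above 0.05 without replicate 1 of female chow, and that of Cpt1a (0.0763) without replicate 2. In males that of Fgf21 rose above it in 4 omissions (up to 0.0893, without replicate 1 of male chow). Of 11 clock genes, 0 were at an unadjusted p under 0.05 with statin in either sex, and 0 passed the adjusted test in any of the comparisons.

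Markers of hepatocytes and of other cell types also differed between the sexes on chow, none passed the adjusted test with statin in either sex, and their part in the results was not tested. Sums of markers are CPM without the TMM rescaling, while levels of single markers are given after it. The 6 Kupffer cell and macrophage markers summed to between 314 and 391 CPM in females on chow and between 270 and 431 with statin, and in males to between 177 and 276 and between 168 and 211. Of these, Clec4f and Cd68 were higher in females on chow by the adjusted test, and 0 of the 6 differed with statin in either sex even at an unadjusted p under 0.05. The 5 stellate markers summed to between 273 and 340 CPM in female chow, 197 and 290 in female statin and 174 and 228 over the male livers, with Dcn and Lrat higher in females on chow. Of the 6 hepatocyte markers, 3 (Apoa1, Serpina1c and Cyp2e1) were lower in females on chow by the adjusted test. Another 1 of the 6 was higher in females at an unadjusted p under 0.05, and the median log2 difference was -0.38. The 6 summed to between 100475 and 128448 CPM in female chow and between 87442 and 130016 in male chow, ranges that overlapped. With statin they summed to between 120451 and 151419 CPM in females and between 90941 and 101795 in males. With statin in females 2 of the 6, Cyp2e1 (log2 0.72) and Apoa1 (log2 0.46), were higher at an unadjusted p under 0.05, with a median of 0.23 over the 6, and in males Apoa1 was lower (log2 -0.62). Of the 5 stellate markers 1, Des, was lower in females (log2 -0.48), with a median of -0.37, and the lymphocyte marker Cd79b was higher (log2 0.86). On chow Lrat lost its call in 5 of the 12 omissions (adjusted p up to 0.121, without replicate 3 of male chow), and Clec4f (up to 0.0619) and Apoa1 (up to 0.0558) in 2 each, without replicates 1 and 3 of male chow. With statin in females the unadjusted p of Apoa1, Des and Cd79b rose above 0.05 in 3, 4 and 3 omissions. The endothelial markers summed to between 212 and 223 CPM in female chow, 183 and 244 in female statin and 143 and 204 over the male livers, and 1 of the 4, Clec4g, was higher in females on chow (log2 0.67, adjusted p = 0.00567). The 3 red cell markers summed to between 148 and 162 CPM in female chow, 119 and 222 in female statin and 171 and 234 over the male livers, and 1, Alas2, the red cell form of the enzyme that starts heme synthesis, was lower in females on chow, at 19.2 against 93.1 CPM (log2 -2.28, adjusted p = 5.1e-05). The median log2 difference of the 3 on chow was 0.19, so the other red cell markers did not share the direction of Alas2. Cholangiocyte, lymphocyte and neutrophil markers reached at most 8.84, 5.69 and 4.18 CPM in sum, and Ly6g, Cpb1, Pnlip, Adipoq and Plin1 had at most 4 counts in any liver. The marker genes with calls were named after their values were seen.

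The genes most like the widely varying members were found by the root mean square difference of the centred log2(TMM CPM + 1) profiles over the 12 livers, as a description without a test. For G6pdx the nearest was Elovl6, an elongase of fatty acids (0.31), followed by Pnpla3 (0.48), Fasn (0.51), Acaca (0.52) and Pnpla5 (0.54). For Me1 it was Acss2, the cytosolic acetyl-CoA synthetase (0.26), then Gstm3 (0.33), Gm28548 (0.37), 1810008I18Rik (0.38) and Rdh11 (0.42). For Pgd it was Gm10642 (0.30), then Klk1b4 (0.32), Tbc1d31 (0.34), Fam198a (0.35) and Aldh18a1 (0.35). The 3 lists share no gene. All livers, with their sex and diet, are common to these profiles.

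Neighbouring genes and copies limit the reading of some members, since how the counting handled strand is not given in the sources used here. G6pdx overlaps Ikbkg on the other strand, which stood between 38.4 and 77.5 CPM and had log2 differences of -0.14 both with statin in females and between the sexes on chow. Rpe overlaps Kansl1l on the other strand (9.59 to 15.3 CPM). Pgls, Tkt and Me1 overlap genes that reached at most 0.847 CPM in any liver, and Pgd, Rpia, Taldo1, Idh1 and Slc25a1 overlap no annotated gene. The copies G6pd2, Rpel1, Tktl1 and Tktl2 had at most 1, 0, 5 and 1 counts in any liver, so they could have taken few reads.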

How the data were processed

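Liver poly(A) RNA of 12 mice was sequenced from strand-specific libraries. Per the labels, the authors used STAR 2.4.1a, HTSeq and edgeR 3.28.1 with the build GRCm38. The authors deposited CPM values, made before filtering, and a table described as normalized by TMM that holds raw counts: 100% of the CPM values were whole reads within 0.05 reads, and 0 differed from it. Its filter, checked on the values, was over 1 CPM in 6 or more livers.

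Counts of all 11968 filtered genes entered 1 model in edgeR 4.0.16 (glmQLFit, TMM, common dispersion 0.038, prior degrees of freedom 4.14, all 4 groups, no covariate). SE was taken as the size of the log2 fold change over the root of its F statistic, and intervals use the fit's degrees of freedom. p-values rest on the spread between the 3 mice of a group, pooled over the 4 groups and drawn toward that of other genes. The groups differed in spread: for G6pdx the SD was 13.5% of the mean in male chow and 74.8% in female statin. IDs were matched without version, and 99.8% of tested genes had a symbol. Lengths and overlaps are from GENCODE vM21. Alternatives used DESeq2 1.42.0, limma 3.58.1 (pseudocount 1), other scalings and filters, and each liver left out. R 4.3.3 and Python 3.11.15 were used. The methods were also run on simulated data with 200 genes changed, as a check of the code. Those data had independent livers and the same dispersion of a gene in every group, unlike the livers here, so they do not bear on the calls.

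The members and lists were chosen with earlier results of these data known. Every member is named, and of each list at most 4 genes by smallest p in females with statin, others being named as chosen after their values were seen. Some list genes are not reported here. Same-numbered livers are different mice, and 5 of 18 same-numbered pairs had a correlation of deviations over 0.1, so numbers were not taken as pairs. Over all pairs of livers from different groups the correlation ran from -0.746 to 0.755, so livers shared patterns that no label names. The source of these patterns was not tested.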

Additional observations from a re-analysis of the deposited data

Results flagged for a closer look

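In Tkt and Me1 all 3 statin livers lay below all 3 chow livers in females and above them in males. The interaction of sex and statin was -0.86 on the log2 scale for Tkt (edgeR adjusted p = 0.473) and -2.39 for Me1 (edgeR adjusted p = 0.363), so the tested difference missed the adjusted threshold for both. Of all 11968 genes tested, 134 (1.12%) had statin livers on opposite sides of chow in the sexes, in either direction.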

How the results depend on the processing

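For statin in females, members called numbered 0 in the main analysis, 2 with no filter (G6pdx and Pgd) and 1 with DESeq2 (Pgd), and all genes called numbered 12, against 148 with no filter, 5 with the stricter filter (mean of at least 10 CPM), 270 with DESeq2, 0 with only the groups compared and 5 with the replicate block; at an unadjusted p under 0.05, 808 with only the groups compared, where members numbered 4 (5 with the stricter filter, 7 with DESeq2). In males DESeq2 called 4 genes against 0 with edgeR (234 at an unadjusted p under 0.05, against 630 with no filter, 133 with the stricter filter and 360 with only the groups compared), and members at an unadjusted p numbered 0 with library size alone, the stricter filter or limma, 2 with no filter and 3 with only the groups compared. For the interaction, members called numbered 3 with no filter (G6pdx, Pgd and Me1) and 1 with DESeq2 (Pgd), and all genes called 103 and 122, against 0 with edgeR (959 at an unadjusted p under 0.05, 1461 with no filter). Between the sexes on chow members called numbered 5 with library size alone, no filter or the stricter filter (which does not test Rpia) and 7 with DESeq2, and 771 genes were called with the stricter filter (1794 at an unadjusted p), 1946 with DESeq2 and 2151 with only the groups compared. On statin these were 357 (1281 at an unadjusted p), 1284 and 292, members called numbered 1 with no filter, members at an unadjusted p numbered 1 with library size alone or limma and 0 with only the groups compared or the replicate block, and members not overlapping numbered 0 with DESeq2's size factors or library size alone. The replicate block changed no other call of a member.

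Leaving out each liver in turn gave 0 to 1 members called in females (1 without female statin replicate 1), 3 to 7 at an unadjusted p (3 without female chow replicate 1), 0 to 75 genes called and 800 to 1845 at an unadjusted p. In males it gave 0 members and 0 genes called, 0 to 3 members and 127 to 703 genes at an unadjusted p. For the interaction it gave 0 members and 0 to 14 genes called, 5 to 7 members and 694 to 1440 genes at an unadjusted p. On chow it gave 3 to 6 members (3 without male chow replicate 1), 635 to 1586 genes called and 2336 to 3355 at an unadjusted p. On statin it gave 0 to 2 members called and 0 to 5 at an unadjusted p (2 and 5 without female statin replicate 3), and 378 to 743 genes called and 1845 to 2545 at an unadjusted p.

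Signs turned in 19 of 1035 alternative values of the members, none of them past the adjusted threshold. These were Slc25a1 in females (-0.35 to 0.02 over the livers left out), Taldo1 (-0.05 to 0.02) and Idh1 (0.01 with library size alone, -0.03 to 0.03) in males, Pgls in the interaction (-0.01 with DESeq2 or its size factors, -0.04 with library size alone, and from -0.06 to 0.12 over the livers left out), and on statin Pgls (-0.15 to 0.03), Tkt (-0.04 to 0.45), Me1 (0.02 with the stricter filter, -0.92 to 0.42 over the livers left out) and Slc25a1 (-0.20 to 0.17). Another 993 values kept direction and side of the threshold, 11 fell short of it (all on chow) and 12 newly passed it. Of 1023 alternative values of the other named genes, 944 kept both, 0 turned sign, 67 fell short of the adjusted threshold and 12 newly passed it. Of their 25 calls on chow, 13 were lost when some single liver was left out. The cause of these changes was not tested. The lowest level of a member, 2.74 CPM for Rpia, was above the 0.0651 CPM that 3 counts amount to at most.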
